A study of Mus musculus with 24 samples.

Results

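The genes of the mitochondrial ribosomal proteins were followed in microglia, the brain's own macrophages. Members were protein-coding mouse genes whose symbol is Mrpl or Mrps followed by a number, with pseudogenes left out, and they were found by looking up the Entrez identifiers of the count table in RefSeq. The rule gave 78 genes of the 15878 that had values, with 49 named for the large subunit (Mrpl) and 29 for the small subunit (Mrps). Every one of the 78 passed the filter on low counts that left 10219 genes for testing. The table came from 24 libraries of microglia sorted from the brains of wild-type mice at 28 days, in 4 groups of 6. The WD-Exos and ND-Exos groups were mice with the BCAS operation that received 100 µg of exosomes through a tail vein every 3 days over 28 days. The BCAS group had the operation and was given PBS, and the Sham group, which the titles call control, was given PBS after a sham procedure. BCAS is the usual abbreviation of bilateral carotid artery stenosis, which lowers blood flow to the forebrain. According to the title the exosomes, small vesicles that cells release, came from foam cells, which are macrophages filled with lipid, and the study asked about metabolic defects passed to microglia. The labels do not spell out ND and WD, and they do not say whether the 6 samples of a group were separate mice or pools, so the p-values speak for the spread among these samples, part of which may be technical.

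Mitochondria keep a ribosome of their own, which descends from the bacterial one and translates the few messenger RNAs of the mitochondrial genome. All of these encode core subunits of the respiratory chain and of ATP synthase. The proteins of that ribosome are encoded in the nucleus, made by cytosolic ribosomes and imported, so their genes are regulated apart from the mitochondrial genome they serve. Of the 78 genes 44 carry the number of a bacterial ribosomal protein family and 34 carry a higher number. Most of the higher numbers were given to proteins added in the mitochondrial lineage, but not all, since the product of Mrps24, for example, takes the place of bacterial S3. The names do not always match the place in the structure: in human mitochondria the products of MRPS18A and MRPS30 sit in the large subunit, and mammalian MRPS36 is a part of the oxoglutarate dehydrogenase complex.

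The libraries held 24278000 to 28892000 counts, with 8515 to 10794 genes detected in each. All 10 microglia markers examined had a count in every library. Their summed level averaged 61167 CPM with WD-Exos, 55183 CPM with ND-Exos, 61433 CPM in BCAS and 55200 CPM in Sham, where CPM is the count of a gene scaled to a common library total. Transcripts of other cells were present. The summed level of 10 oligodendrocyte markers was 3530 to 10000 CPM with WD-Exos, 3870 to 8070 CPM with ND-Exos, 1580 to 6080 CPM in BCAS and 3550 to 13600 CPM in Sham. Endothelial markers summed to 644 to 905 CPM with WD-Exos, 479 to 766 CPM with ND-Exos, 501 to 756 CPM in BCAS and 597 to 1670 CPM in Sham, where Sham replicates 3 and 5 held the highest sums. Mural cell markers summed to at most 19.9 CPM with WD-Exos, 23.6 CPM with ND-Exos and 0.0746 CPM in BCAS, whereas Sham replicate 2 held 1080 CPM and Sham replicate 4 held 225 CPM. Neuron markers summed to at most 16.7 CPM with WD-Exos, 22.9 CPM with ND-Exos and 19.3 CPM in BCAS, whereas Sham replicate 1 held 328 CPM. Single Sham libraries thus stood apart in these markers. Markers of neutrophils stayed at or below 1.19 CPM and those of monocytes at or below 31.9 CPM. Astrocyte markers summed to 124 to 385 CPM with WD-Exos and 101 to 490 CPM with ND-Exos. In BCAS their sum was 54 to 267 CPM and in Sham 97.8 to 248 CPM. Of 10 astrocyte markers 6, Gfap and Aqp4 among them, had no count in at least 12 libraries. The same held for several endothelial markers, such as Cldn5 and Flt1, and for neuron markers such as Snap25. Because each sample is a pool of sorted cells, fewer cells of a type and less RNA per cell cannot be told apart.

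Of the 78 genes, 69 matched a promoter in the RefSeq table of build GRCm38.p6, with 75 promoters in all, each of 300 bases (250 before the start of the gene and 50 after). These were searched on both strands for 3 motifs known from genes of mitochondrial proteins: GCGCANGCG for NRF1, CCGGAAG for GABPA and other ETS factors, and AAGATGGC for YY1. Each motif was counted by itself, so overlapping matches of different motifs both counted. The NRF1 letters were in 21.3% of the members' promoters and 6.25% of all 32851 promoters. The ETS letters were in 34.7% and 8.86%, and the YY1 letters in 16% and 2.75%. At least 1 of the 3 was in 58.7% of the members' promoters and in 16% of all. The median GC content was 58.7% in the members' promoters and 52.7% in all of them. Below are the promoters of Mrpl52, Mrpl18 and Mrpl23. Mrpl52 and Mrpl18 had the smallest p over the 4 groups, in that order. Mrpl52 and Mrpl23 had the highest levels per kilobase of transcript, in that order. Capitals mark matches to the ETS letters on either strand. These matches describe the sequence and do not show that a factor bound there.
Mrpl52 (chr14:54426659-54426958, plus strand): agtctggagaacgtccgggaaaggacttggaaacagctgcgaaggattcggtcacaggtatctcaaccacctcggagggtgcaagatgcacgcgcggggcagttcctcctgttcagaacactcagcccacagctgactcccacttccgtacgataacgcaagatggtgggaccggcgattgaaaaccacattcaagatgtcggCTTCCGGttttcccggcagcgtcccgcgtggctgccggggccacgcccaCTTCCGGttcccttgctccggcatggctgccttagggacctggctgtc
Mrpl18 (chr17:12916042-12916341, minus strand): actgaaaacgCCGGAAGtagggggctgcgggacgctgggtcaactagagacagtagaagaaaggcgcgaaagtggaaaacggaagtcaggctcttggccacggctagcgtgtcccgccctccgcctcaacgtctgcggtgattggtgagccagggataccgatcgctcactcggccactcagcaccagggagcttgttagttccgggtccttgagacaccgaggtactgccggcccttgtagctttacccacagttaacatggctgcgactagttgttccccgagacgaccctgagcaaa
Mrpl23 (chr7:142532782-142533081, plus strand): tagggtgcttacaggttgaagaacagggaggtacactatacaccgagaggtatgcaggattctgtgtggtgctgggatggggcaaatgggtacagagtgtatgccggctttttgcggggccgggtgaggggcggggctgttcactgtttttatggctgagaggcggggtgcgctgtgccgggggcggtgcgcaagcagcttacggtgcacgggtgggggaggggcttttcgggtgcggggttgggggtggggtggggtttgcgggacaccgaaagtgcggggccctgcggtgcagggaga
The Mrpl52 window held 2 ETS matches, the Mrpl18 window held 1, and the Mrpl23 window held none of the 3 motifs in this form.

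The members differed from each other in their level in microglia. Mean levels over the 24 libraries ran from 10.9 to 101 CPM, with a median of 29.9 CPM. To compare genes with each other, CPM were divided by the length of the principal transcript in GENCODE vM21, a figure that depends on which transcript is taken. On that scale the median was 23.4 CPM per kilobase, with 22.7 for the large subunit and 25.2 for the small one. Members with a bacterial number had a median of 29.4 CPM per kilobase and those with a higher number had 17.4. The highest was Mrpl52, a large-subunit protein with no bacterial counterpart, at 168 CPM per kilobase. It was followed by Mrpl23 at 110, Mrpl42 at 109 and Mrps21 at 101 CPM per kilobase. Mrpl23 and Mrps21 belong to the bacterial families of L23, which lines the exit of the tunnel for new proteins, and of S21. At the lower end, Mrps35 stood at 2.83, Mrpl19 at 2.92, Mrps30 at 3.28 and Mrps5 at 3.53 CPM per kilobase. The highest level per kilobase was thus 59.4-fold the lowest, within the subunits of the same ribosome.

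**Figure D1:**
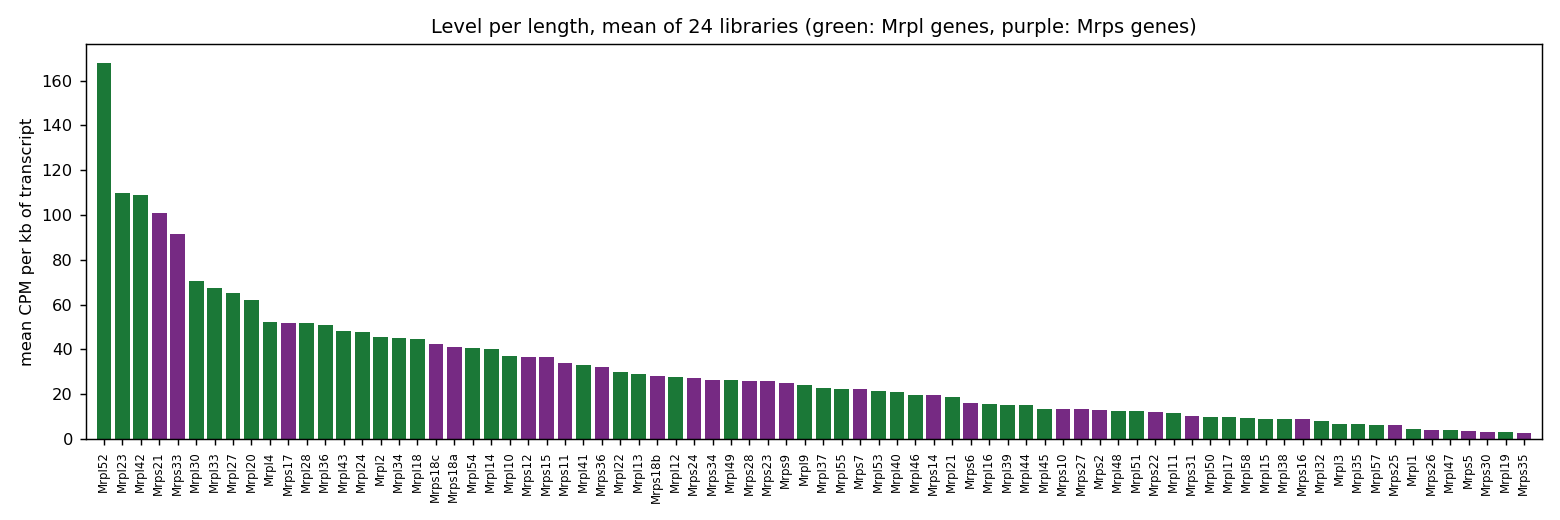
Mean level per kilobase of transcript (y axis, CPM per kilobase, mean of 24 libraries) of each of the 78 genes (x axis), with Mrpl genes in green and Mrps genes in purple. Mrpl52 stands highest at 168 CPM per kilobase and Mrps35 lowest at 2.83.

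Most members were found in every library. A count was present in all 24 libraries for 57 of them, and 21 (26.9%) lacked a count in at least 1 library, against 52.0% of all genes tested. Mrps10 and Mrps27 were the least often found, in 20 libraries each. Among the 1872 values of the members, 37 were 0. In GENCODE vM21 the exons of 33 members overlap another gene, and their reads may not be told apart from those of the neighbour, since the sources used here do not say that counting used strand. The coefficient of variation between samples of a group that edgeR estimated for each gene had a median of 0.679 over the members and 1.2 over all genes tested. It was lowest for Mrpl23 (0.337), Mrps33 (0.353) and Mrpl52 (0.362), and highest for Mrps10 (1.7). Over the 39 members with the higher mean level the median was 0.553, and over the other 39 it was 1.02. The standard error (SE) of a log2 fold change had a median of 0.55 over the members and 1.1 over all genes tested. A 95% interval lay within a 2-fold change in either direction for 12 of 78 members in BCAS against Sham. It did so for 12 in ND-Exos against BCAS, for 12 in WD-Exos against BCAS and for 11 in WD-Exos against ND-Exos. Of all 10219 genes tested it did so for 1642, 1698, 1742 and 1574 in the same comparisons. Within a 4-fold change lay the intervals of 53, 53, 55 and 54 members, and of 3829, 3877, 3878 and 3791 of all genes tested.

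**Figure D2:**
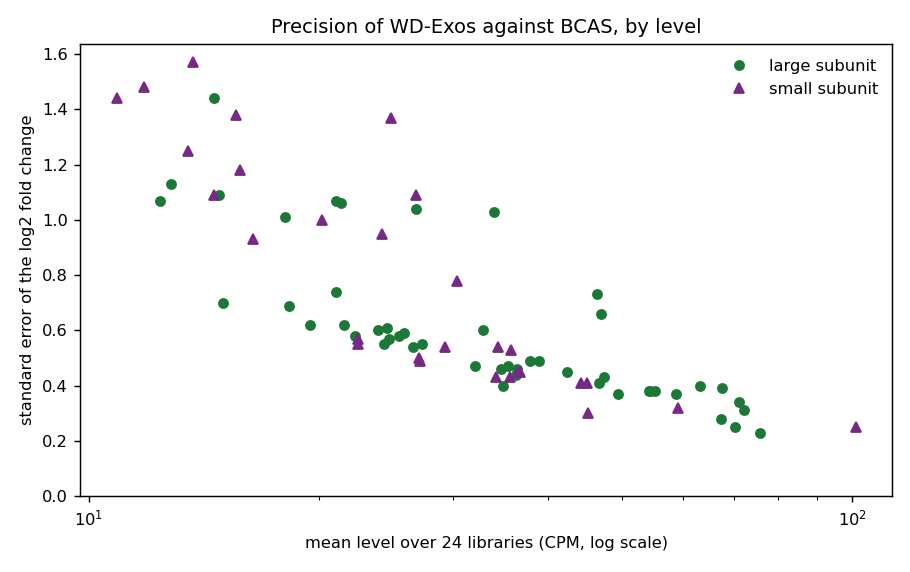
Standard error of the log2 fold change in WD-Exos against BCAS (y axis) against the mean level over 24 libraries (x axis, CPM, log scale), with 1 point per gene, circles for the large and triangles for the small subunit. The error is 0.23 for Mrpl23, among the genes of higher level, and reaches 1.57 among those of lower level.

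Summed over the 78 genes, the transcript level was lowest in the WD-Exos group. The sum was 2357 ± 261 CPM with WD-Exos, 2805 ± 293 CPM with ND-Exos, 2747 ± 289 CPM in BCAS and 2808 ± 214 CPM in Sham (SD, n = 6 each). The WD-Exos libraries held 1933 to 2712 CPM with a median of 2348, the ND-Exos libraries 2453 to 3265 with a median of 2778, the BCAS libraries 2307 to 3185 with a median of 2724, and the Sham libraries 2483 to 3068 with a median of 2791. The groups overlapped throughout, although 4 of the 6 WD-Exos libraries lay below every ND-Exos library and 2 lay below every BCAS library. The mean differed by -14.2% in WD-Exos against BCAS and by -16% in WD-Exos against ND-Exos, whereas it differed by 2.11% in ND-Exos against BCAS and by -2.17% in BCAS against Sham. No test was run on this sum, because the members were chosen as a list.

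In the large subunit the sum was 1564 ± 195 CPM with WD-Exos, 1905 ± 189 CPM with ND-Exos, 1860 ± 191 CPM in BCAS and 1889 ± 162 CPM in Sham (SD, n = 6 each). In the small subunit it was 793 ± 85.4 CPM with WD-Exos, 900 ± 113 CPM with ND-Exos, 887 ± 142 CPM in BCAS and 919 ± 55.4 CPM in Sham. For the large subunit, 4 WD-Exos libraries lay below every BCAS library and 4 below every ND-Exos library; for the small subunit this was so of 1. That 1 library, WD-Exos replicate 2, had the lowest sum of the 24 (1933 CPM) and also the most detected genes (10794). Markers of border macrophages, which live along vessels and in the meninges, also varied between libraries. Their summed level was 137 to 321 CPM with WD-Exos, 234 to 896 CPM with ND-Exos, 73.8 to 595 CPM in BCAS and 294 to 1570 CPM in Sham, with 9 of 9 markers having values and Lyve1 at 0 in at least 12 of the 24 libraries. The part of detected genes and of these markers in the member sum was not tested.

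**Figure D3:**
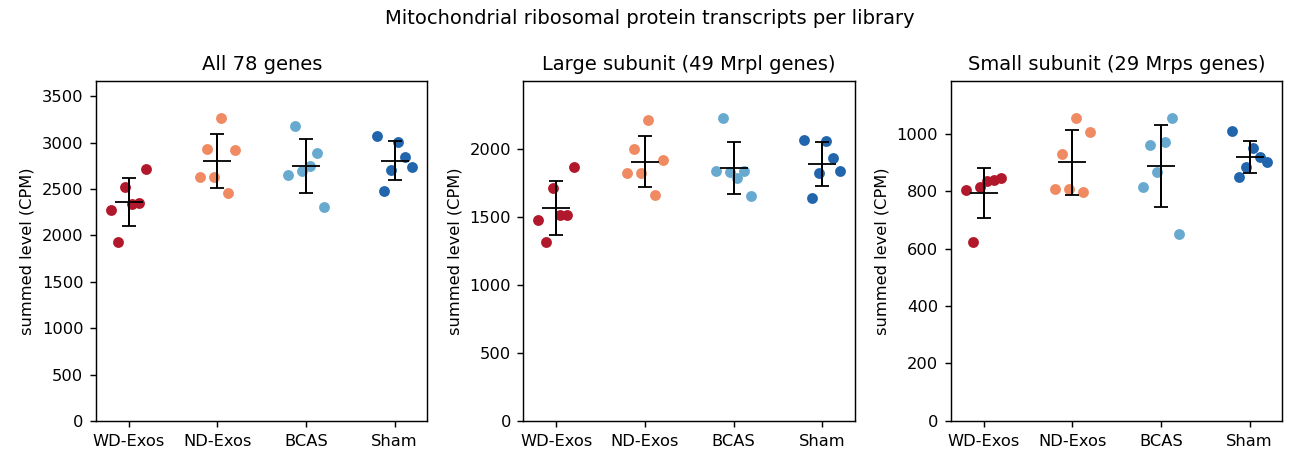
Summed level (y axis, CPM) of all 78 genes, of the 49 large-subunit genes and of the 29 small-subunit genes in each library, by group; points are libraries, the dash is the mean and the bar 1 SD. The WD-Exos libraries lie between 1933 and 2712 CPM for all 78 genes, and the other 3 groups between 2307 and 3265.

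The BCAS and Sham groups were compared for the operation itself, in mice given no exosomes. The members were close to even: 32 were higher and 46 lower in BCAS. Their median log2 fold change was -0.11, where the median over all genes tested was -0.00 and 50.1% of them were lower. By edgeR's quasi-likelihood test with Benjamini-Hochberg adjustment over all genes, 0 members had an adjusted p under 0.05, as against 0.0% of all genes tested. At an unadjusted p under 0.05 edgeR gave 0 higher members (2.67% of all genes) and 0 lower ones (3.37%). DESeq2 gave 4 of 78 in both directions together (9.48% of its genes) and voom gave 3 (7.84%). Of the 13115 genes to which DESeq2 gave a p-value 4.64% passed adjustment, as did 0.0979% of all genes with voom, and 0 members passed with either. The libraries of the groups overlapped for each of the 78 members, whereas for 0.372% of all genes tested they did not. The smallest p belonged to Mrpl10, a protein of the stalk that recruits translation factors. Mrpl10 stood at 51.0 to 107 CPM in BCAS with a median of 82.0, and at 12.7 to 73.8 CPM in Sham with a median of 45.1. All but 2 of the BCAS libraries lay above every Sham library. Its log2 fold change was 0.78 (SE 0.40, adjusted p = 0.902).

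The other members at the higher end in BCAS were Mrpl43, Mrpl32 and Mrps2, with log2 fold changes of 0.59, 0.90 and 1.27. For Mrps2 the SE was 1.1. At the lower end stood Mrpl52, Mrps24, Mrpl35 and Mrpl24, with -0.45, -0.89, -1.04 and -0.58 and adjusted p = 1.0 each by edgeR. Mrpl52 stood at 45.4 to 106 CPM in BCAS with a median of 66.7, and at 71.3 to 113 CPM in Sham with a median of 98.1. Its 6 BCAS libraries were spread widely, and 3 of them lay below every Sham library. Mrps24, of the bacterial S3 position at the entry of messenger RNA, stood at 8.22 to 28.0 CPM in BCAS, with a median of 26.6, and at 21.7 to 66.0 CPM in Sham, with a median of 35.8. Mrps24 shares exon sequence on the same strand with Urgcp, so its counts may hold reads of that gene.

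The effect of ND exosomes in operated mice was read from the ND-Exos and BCAS groups. The members split evenly, with 39 higher and 39 lower and a median log2 fold change of 0.00, against 0.01 over all genes tested, of which 49.6% were lower. With edgeR 0 members passed the adjusted threshold, against 0.0196% of all genes tested. An unadjusted p under 0.05 was found for 3 members in the higher direction (2.38% of all genes) and for 0 in the lower direction (2.09%); DESeq2 gave 6 members (8.06% of its genes) and voom 4 (5.73%) in both directions together. After adjustment 0 members passed with DESeq2 (3.88% of its genes) or voom (0.00979%). The 3 were Mrpl18, Mrpl24 and Mrpl35. All 3 are among the 18 members whose deposited values were not whole numbers in every library, so their counts are uncertain where reads were divided between genes. Mrpl18 overlaps Tcp1 and Mrpl24 overlaps Rrnad1, both on the opposite strand.

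Mrpl18, a protein of the central protuberance whose bacterial counterpart binds the small ribosomal RNA of the large subunit, stood at 51.1 to 98.1 CPM with ND-Exos with a median of 87.5, and at 17.8 to 77.9 CPM in BCAS with a median of 40.9. All but 2 of the ND-Exos libraries were above every BCAS library. The log2 fold change was 0.83 (SE 0.38, edgeR adjusted p = 0.993). Mrpl24, at the exit of the tunnel, stood at 46.5 to 115 CPM with ND-Exos with a median of 72.9, and at 8.67 to 90.8 CPM in BCAS with a median of 42.9. Here the groups overlapped widely, and the log2 fold change was 0.80 (SE 0.37). Mrpl35 averaged 34.9 ± 22.0 CPM with ND-Exos and 14.4 ± 8.29 CPM in BCAS (SD, n = 6 each), with a log2 fold change of 1.28 (SE 0.62). ND-Exos replicate 1, at 72.1 CPM, was its highest library.

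Mrps18a stood next among the higher members, at 38.4 to 79.0 CPM with ND-Exos (median 51.5) and 6.37 to 50.9 CPM in BCAS (median 30.4). The lower members with the smallest p were Mrpl4, Mrpl40, Mrpl42 and Mrpl43, with log2 fold changes of -0.54, -1.0, -0.51 and -0.61. For Mrpl40, of the central protuberance, the ND-Exos libraries were tightly grouped at 10.8 to 23.4 CPM (median 15.7), and the BCAS libraries ran from 8.47 CPM up to 61.5 (median 33.9). For 1 member, Mrpl36, the libraries of the groups did not overlap, against 0.186% of all genes tested. Mrpl36, the counterpart of the zinc-binding bacterial L36, stood at 16.4 to 38.8 CPM with ND-Exos with a median of 34.0, and at 41.0 to 56.3 CPM in BCAS with a median of 45.8. Each ND-Exos library was thus below each BCAS library, but the log2 fold change of -0.61 (SE 0.44) did not pass (edgeR adjusted p = 1.0). Mrpl36 lies outside the rule for named genes and was picked after its values were seen; it overlaps Ndufs6 on the opposite strand.

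For WD exosomes the WD-Exos and BCAS groups were compared. Against BCAS 20 members were higher and 58 lower in the WD-Exos group. Their median log2 fold change was -0.22, where the median over all genes tested was -0.02 and 51.1% of them were lower. With edgeR 0 members passed the adjusted threshold, against 0.0% of all genes tested. At an unadjusted p under 0.05 there were 0 higher members (2.16% of all genes) and 1 lower member (1.55%); DESeq2 gave 1 (6.62% of its genes) and voom 3 (6.5%). After adjustment 0 members passed with DESeq2 (3.12% of its genes) or voom (0.00979%). Lower members made up 33 of the 44 with a bacterial number and 25 of the 34 with a higher one. It was 39 of 49 in the large subunit and 19 of 29 in the small. Among the 39 members of higher mean level 32 were lower (median -0.28), and among the other 39, whose errors were larger, 26 were lower (median -0.11). The libraries of the groups overlapped for each of the 78 members, whereas for 0.186% of all genes they did not. Without BCAS replicate 2, the library with the highest sum of its group, the median over the members was -0.12.

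The 1 lower member was Mrpl11, a stalk protein that binds the site where translation factors act. Mrpl11 stood at 11.3 to 34.2 CPM with WD-Exos with a median of 20.9, and at 29.8 to 70.3 CPM in BCAS with a median of 33.9. All but 1 of the WD-Exos libraries were below every BCAS library. The log2 fold change was -0.96 (SE 0.46, edgeR adjusted p = 1.0). The 4 stalk genes listed, Mrpl10, Mrpl11, Mrpl12 and Mrpl53, were all lower (median -0.36 on the log2 scale). So were 6 of 7 genes of the central protuberance (median -0.11) and 5 of 6 of the tunnel exit (median -0.17), among 58 of all 78 members. Mrpl12, which also binds the mitochondrial RNA polymerase, had -0.05 (SE 0.46). Mrpl49 averaged 24.5 ± 15.4 CPM with WD-Exos and 63.2 ± 45.4 CPM in BCAS (SD, n = 6 each), with a log2 fold change of -1.37 (SE 0.73). Its 6 BCAS libraries ran over 5.61 to 139 CPM, and its exons overlap Syvn1 on the opposite strand.

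Mrpl52 was lower here as well, at 40.2 to 63.1 CPM with WD-Exos with a median of 51.2, but overlapped the BCAS libraries over much of their range (log2 fold change -0.41, SE 0.25). Mrps17, of the bacterial S17 family, had -0.64 (SE 0.41). The higher members with the smallest p were Mrps15, Mrps24, Mrps5 and Mrpl55, at 0.49, 0.52, 1.15 and 0.56. None of these 4 was near the threshold. Mrps5 averaged 19.0 ± 10.5 CPM with WD-Exos and 8.56 ± 5.57 CPM in BCAS (SD, n = 6 each), and the 95% interval of its log2 fold change was -1.26 to 3.56.

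The exosome kinds were then set against each other. Of the members 26 were higher and 52 lower with WD-Exos, and the median log2 fold change was -0.21, against -0.01 over all genes tested, of which 50.8% were lower. This comparison and the one before share the WD-Exos libraries, so they are not independent. With edgeR 0 members passed the adjusted threshold, against 0.0196% of all genes tested. At an unadjusted p under 0.05 there were 0 higher members (2.91% of all genes) and 4 lower members (2.43%), namely Mrpl18, Mrpl17, Mrpl11 and Mrps18a. DESeq2 gave 9 of 78 members (8.63% of its genes) and voom 8 (9.65%) at that level, and after adjustment 0 members passed with DESeq2 (3.59% of its genes) or voom (0.0391%). The groups overlapped for each of the 78 members, whereas for 0.519% of all genes tested they did not. Among the 39 members of higher mean level 32 were lower (median -0.43), and among the other 39 it was 20 (median -0.02). Of members with a bacterial number 33 of 44 were lower, and of those with a higher number 19 of 34.

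Mrpl18 stood at 13.9 to 89.4 CPM with WD-Exos with a median of 32.7, against 51.1 to 98.1 CPM with ND-Exos with a median of 87.5. All but 1 of the WD-Exos libraries lay below every ND-Exos library; the exception, replicate 4, had 89.4 CPM. The log2 fold change was -0.94 (SE 0.38, edgeR adjusted p = 0.70). Mrpl17, of the tunnel exit, stood at 28.2 to 98.1 CPM with WD-Exos with a median of 49.3, and at 74.7 to 111 CPM with ND-Exos with a median of 93.9. Again 1 WD-Exos library, replicate 6, reached into the ND-Exos range (log2 fold change -0.77, SE 0.35, adjusted p = 0.835). Mrpl11 averaged 21.1 ± 7.68 CPM with WD-Exos and 42.8 ± 19.5 CPM with ND-Exos (SD, n = 6 each), with a log2 fold change of -1.02 (SE 0.46, edgeR adjusted p = 0.853).

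Mrps18a is 1 of 3 paralogs, with Mrps18b and Mrps18c, of the single bacterial S18, and the 3 did not show the same pattern of levels. Mrps18a averaged 28.7 ± 10.1 CPM with WD-Exos, 57.6 ± 17.1 CPM with ND-Exos, 30.4 ± 14.4 CPM in BCAS and 29 ± 11.2 CPM in Sham (SD, n = 6 each). Its ND-Exos libraries were the high ones. With WD-Exos against ND-Exos the log2 fold change was -1.0 (SE 0.46, edgeR adjusted p = 0.854). Mrps18b averaged 32.8 ± 11.3 CPM with WD-Exos, 34.0 ± 15.4 CPM with ND-Exos, 26.1 ± 26.6 CPM in BCAS and 28.6 ± 8.58 CPM in Sham, and the same log2 fold change was -0.05 (SE 0.78). Mrps18c averaged 25.8 ± 8.65 CPM with WD-Exos, 27.9 ± 15.6 CPM with ND-Exos, 32.6 ± 8.68 CPM in BCAS and 22.4 ± 8.50 CPM in Sham, with -0.12 (SE 0.49). Whether the paralogs differed from each other was not tested.

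The higher members with WD-Exos against ND-Exos were Mrps24, Mrpl40, Mrps26 and Mrpl3, with log2 fold changes of 0.80, 0.71, 0.90 and 1.0. Mrpl3, one of the proteins near the catalytic centre, stood at 23.7 to 57.0 CPM with WD-Exos with a median of 40.7, and at 0 to 61.6 CPM with ND-Exos with a median of 10. Its ND-Exos libraries thus covered the whole range of the WD-Exos ones, and the SE was 1.05. Mrpl23, the most evenly expressed member, averaged 63.8 ± 15.5 CPM with WD-Exos, 86.1 ± 19.0 CPM with ND-Exos, 70.5 ± 10.4 CPM in BCAS and 82.8 ± 12 CPM in Sham (SD, n = 6 each). For Mrpl23 in WD-Exos against ND-Exos the 95% interval of the log2 fold change was -0.90 to 0.03, so a 2-fold fall lay outside it.

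**Figure D4:**
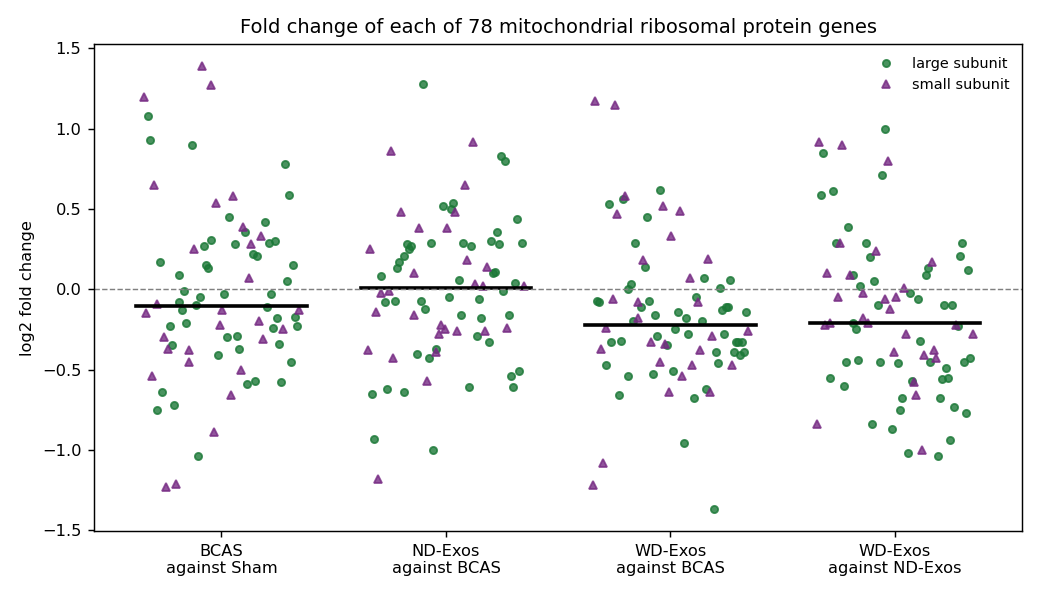
Log2 fold change (y axis) of each of the 78 genes in the 4 comparisons (x axis), with circles for the large and triangles for the small subunit, ordered by mean level from left to right within a comparison; the black line is the median. The medians are -0.11, 0.00, -0.22 and -0.21, and the genes of lower level, on the left, spread more widely.

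A test of any difference among the 4 groups gave an unadjusted p under 0.05 for 1 member, Mrpl52, where 6.33% of all genes tested had one, and 0 members passed adjustment, against 0.0294% of all genes (edgeR). Mrpl52 averaged 51.1 ± 7.49 CPM with WD-Exos, 69.7 ± 14.5 CPM with ND-Exos, 68.0 ± 23.2 CPM in BCAS and 92.6 ± 17.0 CPM in Sham (SD, n = 6 each; adjusted p = 0.65 by edgeR). Its 6 WD-Exos libraries lay at 40.2 to 63.1 CPM and its 6 Sham libraries at 71.3 to 113 CPM, so these groups did not overlap. WD-Exos against Sham is a contrast that the 4 comparisons do not contain; in it Mrpl52 was the 1 member without overlap, against 1.04% of all genes tested.

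**Figure D5:**
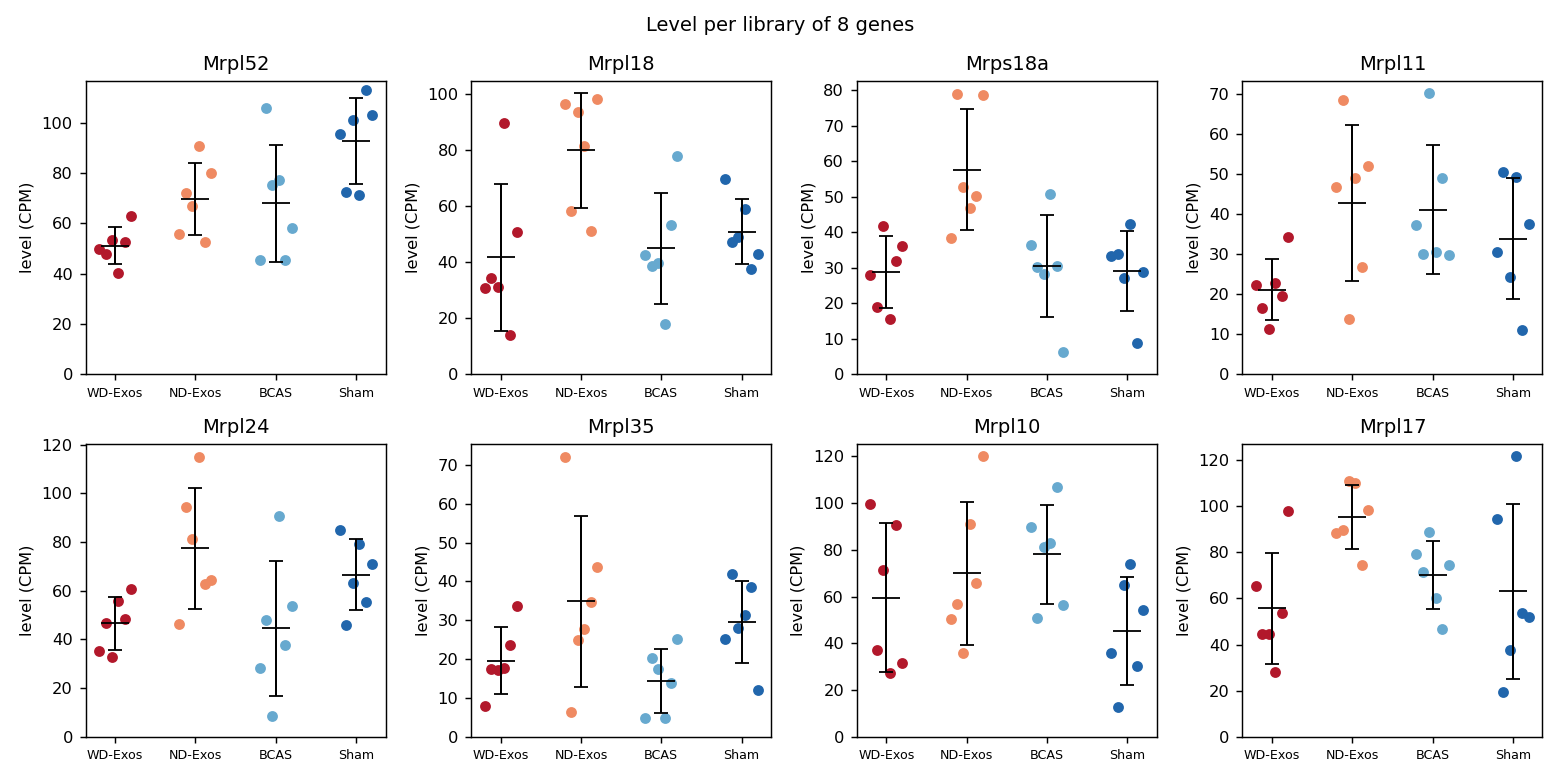
Level (y axis, CPM) of 8 named genes in each library, by group; points are libraries, the dash is the mean and the bar 1 SD. Mrpl52 is lowest with WD-Exos (51.1 CPM) and highest in Sham (92.6 CPM), and Mrpl18 and Mrps18a are highest with ND-Exos (79.8 and 57.6 CPM).

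Genes that work with the mitochondrial ribosome were compared in the same fit. The lists held 5 ribosomal proteins with other names, 26 assembly factors and 13 translation factors. They also held 19 transfer RNA synthetases of mitochondria and 7 genes of mitochondrial transcription. In each of the 4 comparisons edgeR passed 0 of these genes (0.0% to 0.0196% of all genes). It gave an unadjusted p under 0.05 to at most 1 gene of a list. Of all genes it did so for 2.16% to 2.91% in the higher direction and 1.55% to 3.37% in the lower. Voom passed 0 as well (0.00979% to 0.0979% of all genes). Its unadjusted p was under 0.05 for at most 5 of a list. These were 5 of the 26 assembly factors in WD-Exos against ND-Exos (9.65% of all genes). DESeq2 passed at most 1 gene of a list in a comparison (3.12% to 4.64% of its genes). In WD-Exos against BCAS these lists had medians of 0.02, 0.11, 0.39, 0.17 and 0.45 on the log2 scale, beside -0.22 for the members. None of the 5 was below 0, but most were less precise. Their median SE was 0.51, 1.7, 1.04, 1.63 and 1.43, against 0.55 for the members. The 39 members of lower mean level, with a median SE of 0.93, had a median of -0.11. In WD-Exos against ND-Exos the medians of the lists were -0.18, 0.14, -0.07, 0.19 and 0.37, beside -0.21. The difference between lists and members was not tested. Among them Oxa1l, which inserts newly made proteins into the inner membrane, averaged 46.1 ± 23.4 CPM with WD-Exos, 48.5 ± 19.9 CPM with ND-Exos, 19.7 ± 16.1 CPM in BCAS and 26.8 ± 14.4 CPM in Sham (SD, n = 6 each). Tfam, which packs and transcribes mitochondrial DNA, averaged 33.1 ± 18.3 CPM with WD-Exos, 13.7 ± 11.6 CPM with ND-Exos, 16.6 ± 12.9 CPM in BCAS and 19.7 ± 12.2 CPM in Sham. Neither passed with edgeR in any comparison.

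The 81 tested nuclear genes of oxidative phosphorylation, whose products join the proteins that this ribosome makes, were mostly lower in the WD-Exos comparisons as well. In WD-Exos against BCAS 62 of the 81 were lower (median -0.15), and in WD-Exos against ND-Exos 64 were (median -0.25), with 0 past the threshold by edgeR. At an unadjusted p under 0.05 edgeR gave 1 higher and 3 lower genes in the first of these (2.16% and 1.55% of all genes). In the second it gave 1 higher and 5 lower (2.91% and 2.43%). Voom passed 0 in both. DESeq2 passed 1 higher and 1 lower of 84 genes in each, against 3.12% and 3.59% of all its genes. In BCAS against Sham 62 of the 81 were lower (median -0.17), where the members had a median of -0.11. Of the 62, edgeR gave 8 an unadjusted p under 0.05 (3.37% of all genes, lower) and 0 an adjusted one. Voom passed 0, and DESeq2 passed 3 of 84, all lower, against 4.64% of all its genes. Of the 85 tested proteins of the cytosolic ribosome 70 were lower in WD-Exos against BCAS (median -0.10), a larger share than among the members but a smaller median, and 47 were lower in WD-Exos against ND-Exos (median -0.01). In these comparisons 2 and 3 of them, all lower, had an unadjusted p under 0.05 by edgeR (1.55% and 2.43% of all genes). None had an adjusted one. Voom passed 0 in both. DESeq2 passed 0 of 88 in the first (3.12% of its genes) and 2, both lower, in the second (3.59%). The cytosolic genes took 4.12% of all counts with WD-Exos, 4.44% with ND-Exos, 4.35% in BCAS and 5.98% in Sham, so that the Sham group was the high one. The members took 0.235% with WD-Exos, 0.289% with ND-Exos, 0.267% in BCAS and 0.277% in Sham. The 84 genes of oxidative phosphorylation with values took 1.09%, 1.24%, 1.13% and 1.29% in the same order. Their share differed by -3.54% in WD-Exos against BCAS and by -12.6% in BCAS against Sham. In BCAS against Sham all 85 cytosolic genes were lower (median -0.47). Of these 68 had an unadjusted p under 0.05 (3.37% of all genes, lower) and 0 an adjusted one by edgeR. By voom 7 passed (0.0979% of all genes). With DESeq2 31 of 88 passed, all lower, against 4.64% of its genes. Of the mitochondrial ones 46 of 78 were lower. In the same comparison most tested markers of other cells were lower too. Lower were all 8 tested border macrophage markers (median -1.22), all 8 of oligodendrocytes (-1.58), all 4 of endothelium (-1.17) and both of mural cells and of neurons. Of 5 astrocyte markers 3 were lower. The 1 tested marker of neutrophils, the 1 of monocytes and 9 of 10 microglia markers (median 0.18) were higher. By summed level the median library was not lower in BCAS for border macrophages (396.5 CPM, Sham 370), oligodendrocytes (4935, Sham 4810) or astrocytes (173, Sham 152.5). It was lower for endothelium (581 CPM, Sham 681), mural cells (0.0386, Sham 15.45) and neurons (0.37, Sham 14.7). The part of these markers in the result was not tested. The difference between these families was not tested.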

How the data were processed

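RNA of sorted mouse microglia was amplified by Smart-seq2, per the labels' protocols, in 24 libraries, 4 groups of 6. The deposited values are estimated counts of Entrez genes without scaling, whole in every library for 76.8% of genes. How reads were aligned and counted, and on which build, is not given in the sources used. Of 22064 identifiers 6186 were blank and left out. Symbols came from RefSeq (GRCm38.p6) and lengths and overlaps from GENCODE vM21; the authors' build being unknown, coordinates are given only for RefSeq promoters. Of the symbol pattern, 6 RefSeq pseudogenes were left out, none with values.

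Values were rounded, and R 4.3.3 with edgeR 4.0.16 ran the tests: filterByExpr (minimum count 10, 10219 genes kept), TMM scaling, 1 fit over 24 libraries with 4 group means, robust quasi-likelihood F tests, Benjamini-Hochberg adjustment over all genes, threshold 0.05. Levels are CPM on the TMM scale. There were 4 comparisons, of the operation, of each exosome kind within operated mice, and of WD-Exos with ND-Exos. Alternatives were RLE size factors, no filter and a stricter one (mean of 10 CPM), only the 2 groups, a replicate block, detected genes as a covariate, limma 3.58.1 voom with library weights, DESeq2 1.42.0, only members with whole values, and leaving out each library. The script was tested on simulated data. Reads were amplified and carry no molecular identifiers, so counts are not numbers of molecules. Figures were drawn with matplotlib 3.10.9.

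Members and lists were chosen with earlier results of these data known. Named were, per comparison, the members past the threshold or else up to 4 higher and 4 lower with the smallest p; the 3 with the smallest p over the 4 groups; the 4 highest and 4 lowest per kilobase; and the Mrps18 paralogs. From each related list, at most the gene with the smallest p per comparison could be named. Other genes named for a role were chosen after their values were seen.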

Additional observations from a re-analysis of the deposited data

Results flagged for a closer look

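In 128 groups of 6 libraries (the named members and the summed levels) the gap between the most extreme library and its neighbour was compared with Dixon's 95% critical value for 6 samples. It was larger in 13, where chance gives about 1 in 20. For Mrps2, a small-subunit protein with a bacterial counterpart, WD-Exos replicate 1 had 0.0365 CPM where the other WD-Exos libraries had 14.6 to 60.3 CPM, and ND-Exos replicate 6 had 0.0765 CPM where the others had 17.0 to 70.0 CPM. Mrps5 stood at 2.15 CPM in WD-Exos replicate 5 and at 15.7 to 33.4 CPM in the others. Mrpl42 stood at 26.9 CPM in ND-Exos replicate 6, against 50.1 to 69.8 CPM, and at 35.1 CPM in BCAS replicate 3, against 78.7 to 97.2 CPM. Mrps18a stood at 6.37 CPM in BCAS replicate 6, against 28.1 to 50.9 CPM, and at 8.90 CPM in Sham replicate 5, against 27.1 to 42.4 CPM. Its paralog Mrps18c was low in the same Sham library, at 6.87 CPM against 19.7 to 30.8 CPM, and high in ND-Exos replicate 6, at 58.8 CPM against 18.1 to 27.1 CPM. Among Sham libraries, Mrpl43 stood at 27.9 CPM in replicate 2, against 56.5 to 71.7 CPM, and Mrpl49 at 16.6 CPM in replicate 6, against 40.7 to 63.3 CPM.

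Summed levels were marked in 2 libraries. The small-subunit sum of WD-Exos replicate 2 was 622 CPM, where the other WD-Exos libraries had 804 to 845 CPM. The large-subunit sum of BCAS replicate 2 was 2224 CPM, where the other BCAS libraries had 1655 to 1838 CPM.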

How the results depend on the processing

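No member passed the adjusted threshold under any alternative, including each fit without 1 library; the smallest adjusted p of a named member was 0.20 (DESeq2, ND-Exos against BCAS). The 640 values of named members under the alternatives, the fits without 1 library among them, kept their direction and side of the threshold. Each gene was followed only in a comparison for which its small p had picked it, on largely the same libraries. Such genes were likely to keep their direction, so this is a weak check. The count over all genes depended on the tool. BCAS against Sham had 0 genes with edgeR, 10 with voom and 609 with DESeq2. ND-Exos against BCAS had 2 with edgeR, 1 with voom, 1 with detected genes as a covariate and 509 with DESeq2. WD-Exos against BCAS had 0, 1 with voom and 409 with DESeq2. WD-Exos against ND-Exos had 2, 4 with voom, 1 with only the 2 groups and 471 with DESeq2. The cause was not tested. Without 1 library the counts were 0 to 32, 1 to 3, 0 to 0 and 2 to 5 in the same order of comparisons, and the 32 came without BCAS replicate 2.

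The median log2 fold change of the members was -0.17 (without Sham replicate 2) to -0.022 (without BCAS replicate 6) in BCAS against Sham, -0.073 to 0.067 in ND-Exos against BCAS, -0.298 to -0.123 in WD-Exos against BCAS and -0.246 to -0.148 in WD-Exos against ND-Exos; in BCAS against Sham it was -0.048 without BCAS replicate 3. The number of lower members was 40 to 49, 32 to 47, 53 to 59 and 47 to 55. Replicate numbers showed no general pairing of the samples. Over 36 pairs of libraries of the same number the correlation of deviations from the group mean was -0.347 to 0.314 (1423 genes of at least 100 CPM). The median was -0.0191, with 8 pairs over 0.1, and over pairs of different numbers the median was 0.00457. With the replicate block 0 members and 0, 2, 0 and 2 genes passed, and the median of the members was -0.11, -0.02, -0.22 and -0.21. The precision limits what can be seen: 12 members at most had an interval within a 2-fold change.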
